A study of Mus musculus with 32 samples.

Results

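The genes described here carry the symbol stem Psm with a letter from a to g and a number, and encode the constitutive proteasome with its regulators. They were chosen by symbol among protein-coding genes. The immunoproteasome subunits Psmb8, Psmb9 and Psmb10 and all pseudogenes were left out. The rule found 47 of the 18588 genes in the table. RefSeq lists 48 protein-coding mouse genes that match it, and the remaining one, Psmb11, had no values. By role, 8 members encode alpha and 7 encode beta subunits of the 20S core. The 19S regulatory particle accounted for 6 ATPases and 11 non-ATPase subunits. A further 3 members are chaperones of 19S assembly, 4 are chaperones of 20S assembly, 5 are activators and 1 is an inhibitor. Psmc3ip and Psme3ip1 share the symbol stem without being proteasome subunits, which leaves 45 members with a proteasome role.

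The proteasome degrades proteins that carry chains of ubiquitin. Its core is a barrel in which rings of beta subunits, some of them proteolytic, lie between outer rings of alpha subunits, while the regulatory particle binds and removes ubiquitin and its ATPases unfold the substrate. Immune cells such as microglia also use alternative catalytic subunits and an interferon-inducible activator, and part of the peptides that the proteasome makes are displayed on MHC class I molecules.

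RNA of forebrain microglia was sequenced from female rTg4510 mice and from WT littermates at 2, 4, 6 and 8 months of age. In rTg4510 mice a tTA activator under the CaMKIIα promoter switches on a human tau transgene with the P301L change in forebrain neurons, and the WT animals, F1 hybrids by their strain label, carried no transgene. Each library held cells taken with CD11b microbeads from the pooled forebrains of several animals, so a replicate is a pool. Of 32 libraries the authors kept 28. Each genotype was left with 4 libraries at the ages of 2 and 6 months, and with 3 at the ages of 4 and 8 months. The libraries they left out after quality control were replicate 3 of both genotypes at 4 months and replicate 4 of both genotypes at 8 months. The values are log2 gene signals, normalised by the authors so that the median of each library was 5.63. They are not divided by gene length, so levels are compared between libraries and not between genes. Per-library read totals are absent from the values used, and depth cannot be derived from them. The lowest value of a member in a kept library was 4.20, while the lowest value of any gene in a kept library ranged from 1.23 to 1.92. All 47 members lay above the 25th percentile of mean signal, 4.53.

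The cell label was checked against markers. All 9 listed microglia markers had values, and the list's highest signal was that of Cx3cr1, a chemokine receptor, at a mean of 13.9 in WT and 13.6 in rTg4510 mice at 2 months. Of 6 neuron markers, Rbfox3, Tubb3, Slc17a7 and Gad1 had no row in the table. Snap25, the higher of those present, had group means of up to 4.99, and those of Syt1 ran from 2.22 to 4.19. Another microglia marker, Aif1, read only 6.49, 6.10, 6.22 and 6.27 in WT libraries at 2 months. Markers of other cell types had signal too. In that group the mean log2 of the summed signal was 15.1 for microglia, 10.6 for border macrophage, 9.47 for neutrophil and 8.72 for astrocyte markers. Since signals are not compared between genes, the lists do not give the share of other cells. In bulk RNA, fewer cells of a type and less RNA per cell cannot be told apart.

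The first question was which members differed between rTg4510 and WT microglia at each age. Differences were fitted with limma as 8 group means over the 28 libraries, with 20 residual degrees of freedom, and are given as log2 fold changes of rTg4510 over WT. A gene was called when its p, adjusted by the Benjamini-Hochberg method over all 18588 genes of the comparison, was under 0.05. At 2 months 4 of 47 members were called higher, against 4.76% of all genes. At 4 months 16 members were called higher, against 14.1% of all genes. At 6 months 18 were called higher, against 19.1%, and at 8 months 13, against 16%. A single member, Psmd6, was called lower, at 8 months, where 9.78% of all genes were. With replicate number as a block 3 members were lower at that age, Psmd6, Psmd5 (-0.27, adjusted p 0.0346) and Psmg1 (-0.37, adjusted p 0.0347). At 2, 4 and 6 months 0 members were called lower by limma, against 236, 1692 and 2777 of the 18588 genes. With its moderated variance, and in the block fit, the count was also 0 at those ages. Quantile normalization, by contrast, gave 1 lower at 4 months, 2 at 6 months and 3 at 8 months, against 2054, 2952 and 2409 of all genes. At unadjusted p under 0.05, in either direction, 10, 22, 20 and 18 members passed at 2, 4, 6 and 8 months, against 3069, 6246, 7990 and 6580 of the 18588 genes. At 6 and 8 months these shares were close to each other. The sign was positive for 38, 40, 38 and 28 of 47 members at these ages, against 53%, 46.1%, 46.6% and 48.6% of all genes.

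The changes were small. The median member difference was 0.06 at 2 months, 0.20 at 4 months, 0.13 at 6 months and 0.05 at 8 months, where the medians over all genes were 0.01, -0.04, -0.03 and -0.01. At 8 months the member median was -0.00075 with all 32 libraries, 0.00742 under 75th percentile centring and 0.0232 under quantile normalization. That at 2 months was 0.0324 and that at 6 months 0.0872 under 75th percentile centring, and that at 4 months was 0.31 with all 32 libraries. Members called higher by more than 1.5-fold numbered 0, 2, 3 and 3 at 2, 4, 6 and 8 months. With all 32 libraries they numbered 7 at 4 months and 1 at 8 months. In the fit of 28 libraries the same rule, in the higher direction only, took in 1.58%, 9.47%, 11.3% and 10.5% of all genes. In this fit the share of members called higher was thus above that of all genes at each age. The share called higher by more than 1.5-fold was below that of all genes. The median standard error was also smaller for members, 0.0811 at 2 and 6 months and 0.0937 at 4 and 8 months, against 0.164 and 0.189 over all genes. Across ages, 3 members were called higher at all 4 ages (Psmb4, Psmb6 and Psme1), 6 members were called at 3 ages, 8 at 2 ages, 6 at 1 age and 24 at none. The matching shares of all genes are not given here, so these counts describe the members alone.

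The counts rested on the choice of libraries. When the 4 excluded libraries were restored, the members called higher numbered 0, 14, 3 and 1 at the successive ages and 0 were lower, against 314, 4060, 3718 and 3323 of all genes called in either direction. The members' share was then below that of all genes except at 4 months. Of the calls made with the 28 libraries, 0 of 4, 10 of 16, 3 of 18 and 1 of 14 were made again, and the direction was kept in each. The restored libraries are of 4 and 8 months, so genotype differences at 2 and 6 months did not change. The member medians there stayed at 0.0599 and 0.133. At those 2 ages the restored libraries enter only through the residual variance and the adjustment of p. Fitting the groups of 1 age alone gave 0 members higher at 2 months and 4 at 4 months, with 14 at 6 months and 9 at 8 months, and 0 lower. All genes called in those fits numbered 554, 2215, 5124 and 2490, so the members' share was below theirs at 2 and 4 months. Leaving out 1 library at a time moved the count at 2 months to 1 (without rTg4510 replicate 3) or 2 (without rTg4510 replicate 1 or WT replicate 2). At 4 months it fell to 10 without rTg4510 replicate 4 or WT replicate 4. The median at 2 months was 0.0967 without rTg4510 replicate 1, and the median at 4 months was 0.125 without rTg4510 replicate 2. The median at 8 months was 0.115 without WT replicate 3, 0.0139 without WT replicate 2 and 0.0291 without rTg4510 replicate 3.

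**Figure D1:**
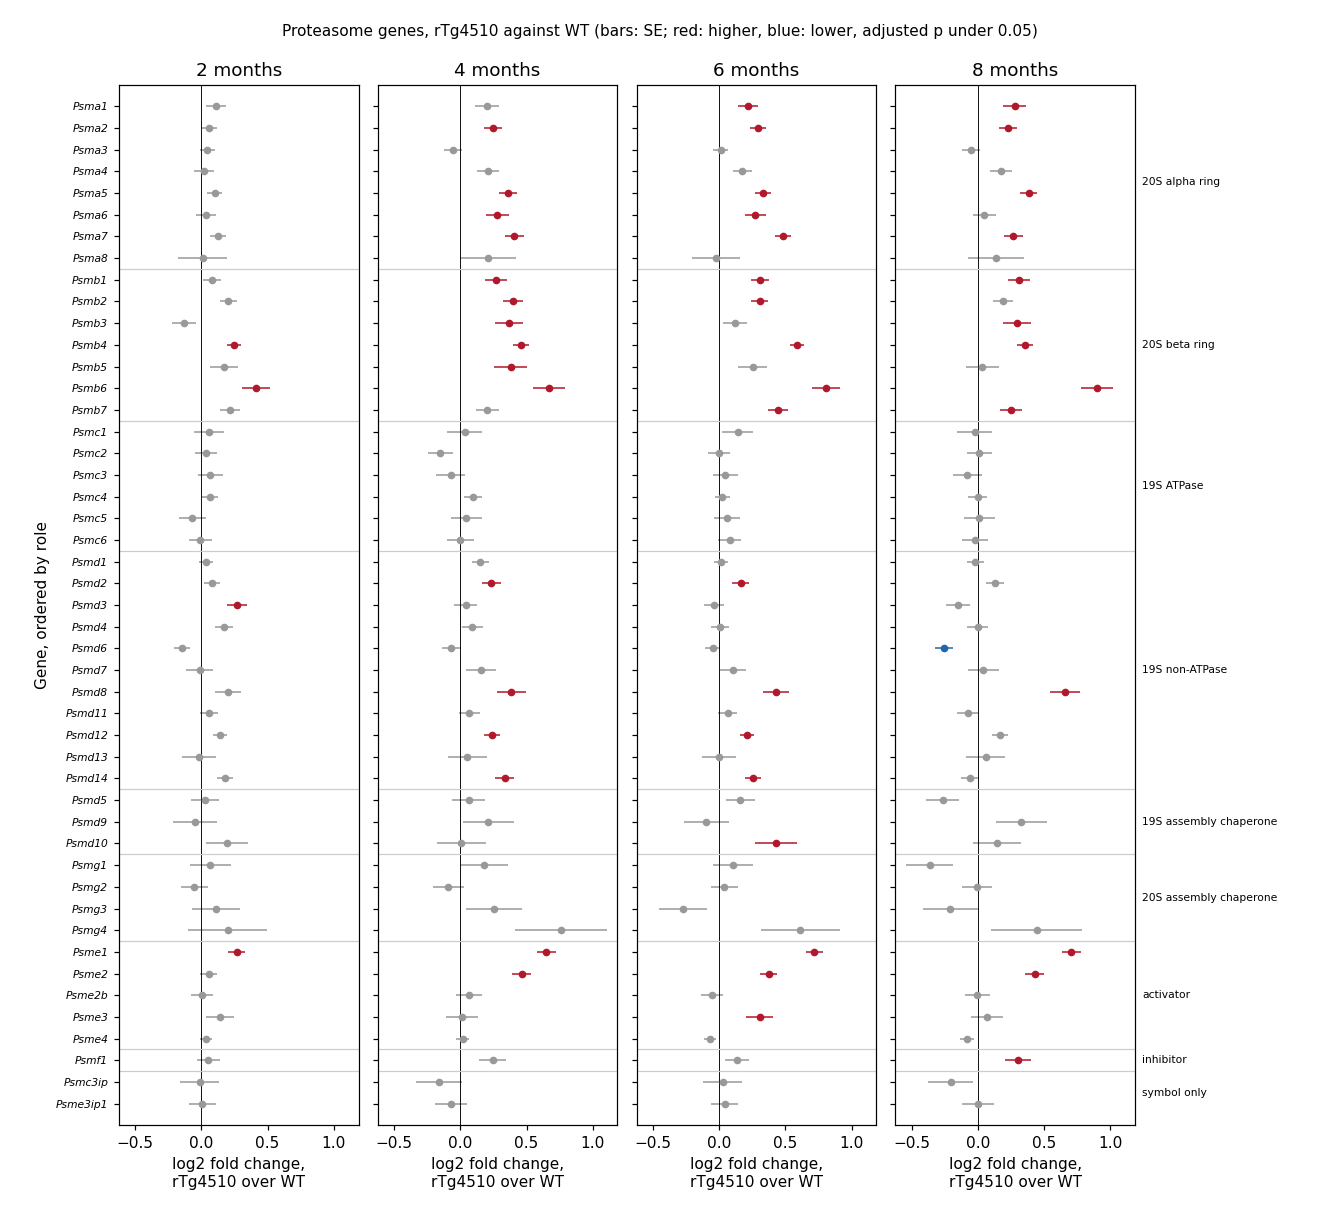
Log2 fold change of each of the 47 members, rTg4510 over WT, at 2, 4, 6 and 8 months, ordered by role; bars are standard errors and colour marks adjusted p under 0.05 (red higher, blue lower). The 6 ATPases lie between -0.15 and 0.14 at every age, while Psmb6 reaches 0.90 and Psme1 0.72.

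The core's beta ring, which holds the proteolytic sites, had 2, 6, 5 and 5 of 7 members called higher at 2, 4, 6 and 8 months, with median differences of 0.20, 0.38, 0.31 and 0.29. Of all genes 4.76%, 14.1%, 19.1% and 16% were called higher at these ages. With all 32 libraries the beta members called were Psmb2, Psmb3 and Psmb4 at 4 months and Psmb2 and Psmb4 at 6 months. Psmb6 (Entrez 19175, chr11:70525324-70527858) encodes the subunit with caspase-like activity. Its signal in WT libraries was 7.10, 7.16, 7.36 and 7.11 at 2 months, 7.53, 7.36 and 7.38 at 4 months, 7.35, 7.30, 7.60 and 7.32 at 6 months, and 7.25, 7.10 and 7.39 at 8 months. In rTg4510 libraries it was 7.56, 7.59, 7.84 and 7.37 at 2 months, 8.04, 8.06 and 8.17 at 4 months, 7.96, 8.11, 8.45 and 8.26 at 6 months, and 8.26, 8.09 and 8.07 at 8 months. At each age every rTg4510 library lay above every WT library, by the smallest margin at 2 months. The limma difference was 0.41 (SE 0.105, adjusted p 0.0197) at 2 months and 0.67 (SE 0.121, adjusted p 0.000263) at 4 months. It was 0.80 (SE 0.105, adjusted p 2.96e-06) at 6 months and 0.90 (SE 0.121, adjusted p 6.59e-06) at 8 months. The call at 2 months ended without rTg4510 replicate 3 (adjusted p 0.0912) and without WT replicates 1, 2 or 4 (adjusted p 0.0547, 0.0532 and 0.0609). Restoring the 4 excluded libraries gave differences of 0.41, 0.52, 0.80 and 0.87, and 0 of the 4 passed, with adjusted p of 0.999, 0.398, 0.202 and 0.181. The 2-month groups alone gave an adjusted p of 0.152 at that age.

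Psmb4 (Entrez 19172, chr3:94884324-94886958) encodes a beta subunit without a proteolytic site. It read 8.09, 8.04, 7.97 and 8.17 in WT libraries at 2 months, 8.08, 8.23 and 8.03 at 4 months, 7.82, 8.00, 7.92 and 7.84 at 6 months, and 7.95, 8.02 and 8.01 at 8 months. The rTg4510 libraries read 8.26, 8.30, 8.34 and 8.35 at 2 months, 8.50, 8.60 and 8.61 at 4 months, 8.36, 8.47, 8.51 and 8.60 at 6 months, and 8.33, 8.36 and 8.34 at 8 months. The genotypes did not overlap at any age, and at 2 months they came closest. Psmb4 differed by 0.25 (SE 0.0519, adjusted p 0.00429) at 2 months, 0.46 (SE 0.06, adjusted p 5.62e-06) at 4 months, 0.59 (SE 0.0519, adjusted p 1.11e-08) at 6 months and 0.35 (SE 0.06, adjusted p 0.000104) at 8 months. No single omitted library ended these calls. With all 32 libraries its difference at 4 months was 0.82, and its calls at 2 and 8 months ended (adjusted p 0.961 and 0.441), and with the groups of 1 age alone that at 2 months did (adjusted p 0.0552).

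The remaining catalytic subunits moved less. Psmb7, with trypsin-like activity, read 7.20, 7.40, 7.50 and 7.47 in WT and 7.80, 7.79, 7.81 and 7.93 in rTg4510 libraries at 6 months, a difference of 0.44 (adjusted p 8.16e-05). The groups were apart, with WT replicate 1 lowest. That call ended with all 32 libraries (adjusted p 0.168). At 8 months its difference was 0.25 (adjusted p 0.0398), and this call ended without rTg4510 replicate 2 or 3 or WT replicate 1 or 3 (adjusted p 0.118, 0.119, 0.141 and 0.069). It also ended under moderated variance, quantile normalization and 75th percentile centring (adjusted p 0.0564, 0.126 and 0.0671), with all 32 libraries (0.785) and with the groups of that age alone (0.0831). Psmb5, with chymotrypsin-like activity, was called at 4 months (0.38, adjusted p 0.032), where WT libraries read 6.02, 5.88 and 6.17 and rTg4510 libraries 6.28, 6.46 and 6.47. Leaving out rTg4510 replicate 2 or 4 or WT replicate 1 or 2 ended this call (adjusted p 0.0941, 0.103, 0.0717 and 0.135), as did all 32 libraries (0.464) and the 4-month groups alone (0.106). At 6 months Psmb5 differed by 0.25 and was not called (adjusted p 0.0802), but it was with the 6-month groups alone (0.0158) and without rTg4510 2 months replicate 2 (0.0411). At 8 months it differed by 0.03, with rTg4510 libraries at 6.11, 5.89 and 6.34 on both sides of WT libraries at 6.12, 6.10 and 6.03. Without rTg4510 replicate 3 the difference was -0.08.

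Of the beta subunits without a proteolytic site, Psmb1 differed by 0.08, 0.27, 0.31 and 0.31 at 2, 4, 6 and 8 months and was called at 4, 6 and 8 months (adjusted p 0.0172, 0.00132 and 0.00593). The call of Psmb1 at 4 months ended without rTg4510 replicate 2 or 4 or WT replicate 4 (adjusted p 0.0616, 0.0722 and 0.069), under quantile normalization (0.0746) and with the 4-month groups alone (0.0633). All 32 libraries ended its calls at 4, 6 and 8 months (adjusted p 0.267, 0.303 and 0.668). Psmb2, named after its values were seen, was called at 4 and 6 months, with differences of 0.40 and 0.31 (adjusted p 0.000424 and 0.000828). Both were also made with all 32 libraries, while the groups of that age alone ended the call at 6 months (adjusted p 0.055). Psmb3 differed by -0.13, 0.37, 0.12 and 0.30, called at 4 and 8 months (adjusted p 0.0139 and 0.0441). Its call at 4 months ended without rTg4510 replicate 2 or WT replicate 2 or 4 (adjusted p 0.0612, 0.0547 and 0.0777) and with the 4-month groups alone (0.127). Its call at 8 months ended under moderated variance, quantile normalization and 75th percentile centring (adjusted p 0.0527, 0.0727 and 0.0731), with all 32 libraries (0.201) and with replicate number as a block (0.0529). Omitting any of 12 libraries, among them all 6 at that age, also ended it, with adjusted p up to 0.132.

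The alpha ring, which gates the entrance of the core, had 0, 4, 5 and 4 of 8 members called higher at the 4 ages, with median differences of 0.05, 0.23, 0.25 and 0.20. The share of all genes called higher was 4.76%, 14.1%, 19.1% and 16%. At 2 months 0 of 8 passed with limma, 0 had an unadjusted p under 0.05 with moderated variance, and the 95% intervals ran from -0.37 to 0.39. Psma7, an alpha subunit, read 8.12, 8.26, 8.08 and 8.10 in WT and 8.54, 8.62, 8.68 and 8.64 in rTg4510 libraries at 6 months, with no overlap. Its differences were 0.13, 0.41, 0.48 and 0.27, with adjusted p of 0.322, 0.000208, 2.77e-06 and 0.00824. With all 32 libraries its difference at 4 months was 0.68 and its calls at 6 and 8 months ended (adjusted p 0.0544 and 0.39), quantile normalization ended that at 8 months (0.126), and the 4-month groups alone ended that at 4 months (0.0965). Psma5 was called at 4, 6 and 8 months, with differences of 0.36, 0.33 and 0.38 (adjusted p 0.000307, 0.000105 and 0.000138), and none of the 28 omissions ended a call. All 32 libraries ended the calls of Psma5 at 4, 6 and 8 months (adjusted p 0.384, 0.454 and 0.492), as the 4-month groups alone did at 4 months (0.0761). Psma1, Psma2 and Psma6 were also called at 2 or 3 ages, with called differences from 0.22 to 0.29. The calls of Psma1 ended at 6 months without rTg4510 replicate 2 or 3 or WT replicate 1, 2 or 3 (adjusted p 0.129, 0.0904, 0.0787, 0.0696 and 0.0527), and at 8 months without rTg4510 replicate 2 or 3 or WT replicate 1 or 3 (0.0817, 0.0734, 0.108 and 0.0585). Those of Psma2 ended at 4 months without rTg4510 or WT replicate 4 (0.0838 and 0.057), and at 8 months without rTg4510 replicate 2 or WT replicate 3 (0.113 and 0.0655). Psma6 at 4 months ended without rTg4510 replicate 2 or 4 or WT replicate 1 or 4 (0.076, 0.0818, 0.0923 and 0.0661). All 32 libraries or quantile normalization also ended calls of each of these 3 genes, and with all 32 libraries the differences of Psma2 and Psma6 at 4 months were 0.45 and 0.68. With the groups of 1 age alone Psma1 ended at 6 and 8 months (adjusted p 0.11 and 0.0935). Those groups also ended Psma2 at 4 and 8 months (0.175 and 0.0854) and Psma6 at 4 months (0.0527). Centring at the 75th percentile ended Psma1 at 6 months (0.0638) and Psma2 at 8 months (0.0571). Psma3, Psma4 and Psma8, the last known from the testis, were called at 0 ages, with differences from -0.06 to 0.21.

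The 6 ATPases of the regulatory particle, Psmc1 to Psmc6, form the ring that unfolds substrates. At each age 0 of 6 were called by limma, 0 had an unadjusted p under 0.05, and with moderated variance 0 were called. Their median differences were 0.05, 0.02, 0.05 and -0.01. The 95% intervals of the 6 differences lay between -0.28 and 0.30 at 2 months, -0.35 and 0.31 at 4 months, -0.17 and 0.38 at 6 months, and -0.31 and 0.25 at 8 months. With all 32 libraries Psmc4 was called at 4 months (0.51, adjusted p 0.0306). Psmc3 read 7.09, 7.05 and 7.13 in WT and 7.08, 7.27 and 6.71 in rTg4510 libraries at 4 months, with rTg4510 libraries above, within and below the WT values. At 8 months its WT libraries read 6.56, 6.74 and 6.80 and its rTg4510 libraries 6.57, 6.70 and 6.59, which overlap.

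Core and ATPases can be set side by side within a library, as the median signal of the 15 core genes minus that of the 6 ATPases, an added description without a test. The lowest, median and highest of this difference were 0.04, 0.08 and 0.22 in WT and 0.07, 0.09 and 0.17 in rTg4510 libraries at 2 months. They were 0.04, 0.05 and 0.14 in WT and 0.12, 0.32 and 0.66 in rTg4510 at 4 months. At 6 months they were 0.13, 0.20 and 0.49 in WT and 0.42, 0.44 and 0.55 in rTg4510, and at 8 months -0.02, 0.28 and 0.36 in WT and 0.43, 0.46 and 0.57 in rTg4510. The genotypes overlapped at 2, 4 and 6 months and were apart at 8 months. Since signals are not divided by length, the shift between libraries can be read here and the level cannot.

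Non-ATPase subunits of the regulatory particle, which hold its ubiquitin receptors, scaffold and lid, had 1, 4, 4 and 1 of 11 members called higher, and Psmd6 lower at 8 months. All genes called higher made up 4.76%, 14.1%, 19.1% and 16%, so the share of this role at 8 months was below theirs. The medians were 0.08, 0.15, 0.06 and 0.00. Psmd8 (Entrez 57296, chr7:29174187-29180673), a lid subunit, read 6.46, 6.55 and 6.60 in WT and 7.22, 7.39 and 6.98 in rTg4510 libraries at 8 months. At 2 months it read 7.04, 6.93, 7.09 and 7.03 in WT and 7.50, 7.10, 7.12 and 7.16 in rTg4510 libraries. The genotypes were apart at both ages, at 2 months by a narrow margin with rTg4510 replicate 1 far above the rest. The differences of Psmd8 were 0.20, 0.39, 0.43 and 0.66 at the 4 ages, with adjusted p of 0.32, 0.0156, 0.00166 and 0.000116. Its call at 4 months ended without rTg4510 replicate 2 or 4 or WT replicate 4 (adjusted p 0.0697, 0.0579 and 0.108) and with the groups of that age alone (0.157). All 32 libraries ended the calls at 4, 6 and 8 months (0.60, 0.43 and 0.59, adjusted p 0.0594, 0.211 and 0.0783).

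Psmd6 (Entrez 66413, chr14:14112185-14120945), another lid subunit, was the member called lower at 8 months. WT libraries read 7.54, 7.56 and 7.82, and rTg4510 libraries 7.36, 7.34 and 7.44. The groups were apart, with WT replicate 3 well above the other WT libraries. The difference was -0.26 (SE 0.0675, adjusted p 0.00693), and without WT replicate 3 it was -0.17 (adjusted p 0.0632). The call also ended with all 32 libraries (adjusted p 0.444) and with the 8-month groups alone (0.187). Without rTg4510 replicate 3, 2 members were called lower at 8 months. At 2, 4 and 6 months Psmd6 differed by -0.15, -0.07 and -0.05 and was not called.

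Psmd3, a lid subunit, was called higher at 2 months, where WT libraries read 5.36, 5.18, 5.33 and 5.25 and rTg4510 libraries 5.67, 5.44, 5.57 and 5.54. All 4 rTg4510 libraries lay above all 4 WT libraries. Its difference was 0.27 (adjusted p 0.0392), followed by 0.04, -0.04 and -0.15 at 4, 6 and 8 months. The call ended under moderated variance and 75th percentile centring (adjusted p 0.0586 and 0.0611), with all 32 libraries (0.974) and with the 2-month groups alone (0.0979). It also ended without rTg4510 replicates 1, 3 or 4 (adjusted p 0.14, 0.0933 and 0.0699) or WT replicates 2, 3 or 4 (0.136, 0.0594 and 0.0953). The deubiquitinase Psmd14 and the lid subunit Psmd12, named after their values were seen, were called at 4 and 6 months. Psmd14 differed by 0.33 and 0.25 (adjusted p 0.0012 and 0.00277), and Psmd12 by 0.24 and 0.21 (adjusted p 0.00668 and 0.00451). For both genes the call at 4 months ended with the groups of that age alone (adjusted p 0.0556 and 0.121) and the call at 6 months with all 32 libraries (0.179 and 0.403). With all 32 libraries Psmd12 differed by 0.43 at 4 months. Quantile normalization ended that of Psmd12 at 6 months (0.133), as did the 6-month groups alone (0.0544). The scaffold subunit Psmd2 was called at the same ages (0.23 and 0.16, adjusted p 0.0203 and 0.0483), the second of which ended in 20 of 28 omissions of 1 library. The first ended without rTg4510 replicate 2 or 4 or WT replicate 1 or 4 (adjusted p 0.0697, 0.116, 0.0764 and 0.0673), with all 32 libraries (0.153) and with the 4-month groups alone (0.175). Moderated variance, quantile normalization, 75th percentile centring, all 32 libraries and the 6-month groups alone ended the second (0.0801, 0.0558, 0.122, 0.358 and 0.121).

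The assembly chaperones had noisier values. Of the 3 for the regulatory particle, Psmd10 was called higher at 6 months (0.43, adjusted p 0.0403), a call that ended when any one library of either genotype at that age was left out, with adjusted p up to 0.0885. It also ended under 75th percentile centring (0.0605), with all 32 libraries (0.488) and with replicate number as a block (0.0502). Of the 4 for the core, Psmg1 to Psmg4, 0 were called at any age by limma or with moderated variance. At unadjusted p under 0.05 the moderated fit had 0, 1, 1 and 1 of them at 2, 4, 6 and 8 months. Psmg4 had the largest differences of this role, 0.20, 0.76, 0.61 and 0.44, with standard errors from 0.30 to 0.346. Its WT libraries at 4 months read 4.85, 5.06 and 4.32 and its rTg4510 libraries 5.46, 5.49 and 5.55, apart at that age. Restoring the excluded libraries brought calls for Psmg4 (1.13) and Psmg3 (0.84) at 4 months.

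Activators open the core without the ATPase ring, and 1, 2, 3 and 2 of 5 were called higher at 2, 4, 6 and 8 months. Among all genes the share called higher was 4.76%, 14.1%, 19.1% and 16%. Psme1 (Entrez 19186, chr14:55578494-55581527) encodes the alpha subunit of the interferon-inducible activator. WT libraries read 7.84, 7.74, 7.72 and 7.77 at 2 months, 7.91, 7.71 and 7.76 at 4 months, 7.83, 7.72, 7.90 and 7.91 at 6 months, and 7.73, 7.74 and 7.83 at 8 months. Those of rTg4510 mice read 8.11, 7.88, 8.13 and 8.02 at 2 months, 8.32, 8.46 and 8.56 at 4 months, 8.47, 8.60, 8.52 and 8.64 at 6 months, and 8.37, 8.56 and 8.47 at 8 months. At each age every rTg4510 value lay above every WT value of that age. The gap was smallest at 2 months, where rTg4510 replicate 2 lay below some WT libraries of 4 and 6 months. The differences were 0.26 (SE 0.0637, adjusted p 0.0126), 0.65 (SE 0.0735, adjusted p 7.96e-07), 0.72 (SE 0.0637, adjusted p 1.18e-08) and 0.70 (SE 0.0735, adjusted p 2.07e-07). The calls at 4, 6 and 8 months were made under each of the alternatives run, all 32 libraries included, with adjusted p up to 0.0288. The call at 2 months ended without rTg4510 replicate 1 or 3 (adjusted p 0.0539 and 0.0553), with replicate number as a block (0.0529), with all 32 libraries (0.288) and with the 2-month groups alone (0.105).

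Psme2 encodes the beta subunit of the same activator. At 8 months it read 5.27, 5.43 and 5.38 in WT and 5.74, 5.77 and 5.85 in rTg4510 libraries, with no overlap. It differed by 0.05, 0.46, 0.37 and 0.43 at the 4 ages (adjusted p 0.764, 4.07e-05, 6.09e-05 and 8.76e-05). All 32 libraries gave 0.78 at 4 months and ended its calls at 6 and 8 months (adjusted p 0.168 and 0.189), and the 4-month groups alone ended that at 4 months (0.0782). Psme3, whose product forms the nuclear activator, was called at 6 months (0.31, adjusted p 0.028), and this ended without rTg4510 replicate 2 or 4 or WT replicate 2 or 3 (adjusted p 0.0678, 0.116, 0.0597 and 0.101), under 75th percentile centring (0.0565), with all 32 libraries (0.136) and with the 6-month groups alone (0.119). Its groups overlapped at that age. Psme4, the large single-chain activator, was not called on the deposited scale (0.03, 0.02, -0.07 and -0.09). It was called lower under quantile normalization at 6 and 8 months (-0.13 and -0.15, adjusted p 0.0216 and 0.0303), and under 75th percentile centring at 6 months (-0.12, adjusted p 0.0425). The inhibitor Psmf1 was called higher at 8 months (0.30, adjusted p 0.0323), where WT libraries read 6.07, 5.98 and 6.15 and rTg4510 libraries 6.34, 6.30 and 6.45. That call ended without rTg4510 replicate 1 or 3 or WT replicate 1 or 2 (adjusted p 0.06, 0.113, 0.07 and 0.114), with all 32 libraries (0.524) and with the 8-month groups alone (0.0598). Psmc3ip and Psme3ip1, which share only the symbol stem, were called at 0 ages in the comparison of genotypes.

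**Figure D2:**
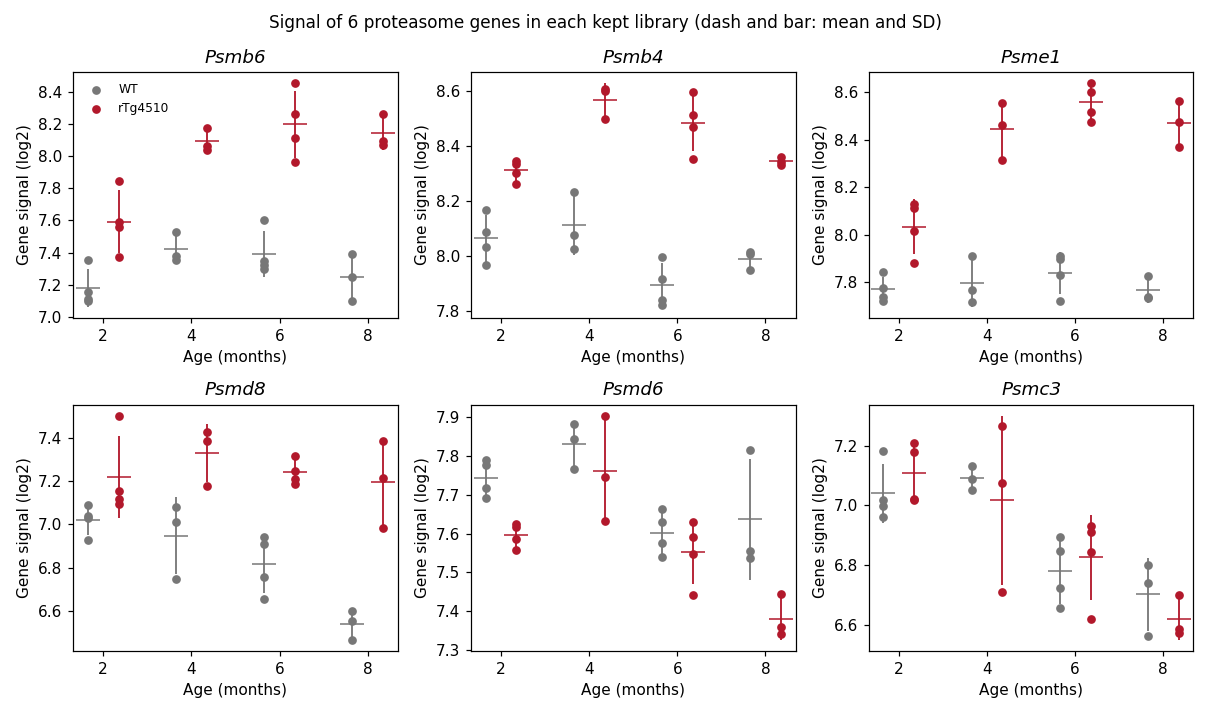
Log2 signal of Psmb6, Psmb4, Psme1, Psmd8, Psmd6 and Psmc3 in each of the 28 kept libraries against age in months, grey for WT and red for rTg4510; dash and bar are the group mean and SD. Psmb6, Psmb4, Psme1 and Psmd8 are apart between genotypes at each age, Psmd6 at 2 and 8 months, and Psmc3 overlaps at each age.

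Whether the genotype difference itself changed with age was tested as an interaction. From 2 to 4 months it changed for 3 of 47 members, against 7.33% of all genes. From 2 to 6 months it changed for 4 members, against 13.4%, and from 2 to 8 months for 4, against 9.76%. Between the later ages 0 members passed with limma. The percentages of all genes there were 0.172% from 4 to 6 months, 0% from 6 to 8 months and 0.145% from 4 to 8 months. The moderated fit, quantile normalization and the block fit also gave 0 members for 4 to 6 and 6 to 8 months. Without rTg4510 2 months replicate 4, 1 member passed from 4 to 8 months. Psme1 grew by 0.38 (adjusted p 0.018), 0.45 (0.00144) and 0.44 (0.0053) from 2 months to 4, 6 and 8 months. Psme2 grew by 0.41 (adjusted p 0.00969), 0.32 (0.0169) and 0.37 (0.0131). The difference of Psmb4 grew by 0.34 from 2 to 6 months (adjusted p 0.00286) and that of Psma7 by 0.35 (0.00875). Psmb3 grew by 0.50 from 2 to 4 months (adjusted p 0.0327) and Psma5 by 0.28 from 2 to 8 months (0.0466), while Psmd3 changed by -0.42 from 2 to 8 months (0.0249). For Psmb6 and the other members the change between ages was not past the threshold, so their larger or smaller differences at one age are not shown to differ from those at another.

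These interaction counts changed with the alternatives. All 32 libraries let 1, 0 and 0 members pass from 2 months to 4, 6 and 8 months, and made the changes of Psme1 and Psme2 from 2 to 4 months 0.61 and 0.72, the second not called (adjusted p 0.128). With replicate number as a block, 1 member passed from 2 to 4 months, and the adjusted p of Psme1 and Psmb3 became 0.0589 and 0.0513. The same count was 1 without WT 4 months replicate 4. Psme1 from 2 to 4 months also ended without rTg4510 4 months replicate 4 or WT 4 months replicate 2 (adjusted p 0.0633 and 0.055). From 2 to 6 months 7 members passed without rTg4510 6 months replicate 1. From 2 to 8 months 2 passed without rTg4510 8 months replicate 1 or WT 8 months replicate 2. Psma5 from 2 to 8 months ended under moderated variance, with replicate number as a block and with all 32 libraries. It also ended in 17, and Psmb3 in 9, of 28 omissions of 1 library. Psmd3 ended without rTg4510 2 months replicate 1, rTg4510 8 months replicate 1, WT 2 months replicate 2, or WT 8 months replicate 2 or 3 (adjusted p 0.0525, 0.0875, 0.0503, 0.0565 and 0.0752). The difference at 2 months enters each of these 3 comparisons, which therefore share libraries.

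Age was then compared within each genotype, each age against 2 months. In WT mice 0 members were called at 4 months, where 0.0861% of all genes were. At 6 months 1 member was called, against 1.15% of all genes, and at 8 months 4, against 4.21%. All 5 calls were lower than at 2 months. They were Psma7 at 6 and 8 months (both -0.28, adjusted p 0.0307 and 0.024), and Psmd8, Psme2 and Psmb1 at 8 months (-0.48, -0.32 and -0.31, adjusted p 0.0134, 0.0105 and 0.0224). Without WT 8 months replicate 1 the count at 8 months was 0. Under quantile normalization it was 2, Psmd8 and Psme2, without Psma7 and Psmb1. The Psma7 call at 6 months ended without WT 2 months replicate 1, 3 or 4 or WT 6 months replicate 1, 3 or 4, with adjusted p up to 0.1, and under moderated variance (0.0635). All 32 libraries gave WT counts of 0 lower at 6 and 8 months. Psmb1 at 8 months ended under quantile normalization and 75th percentile centring (adjusted p 0.053 and 0.0597), and without WT 2 months replicate 1 or 2 or WT 8 months replicate 1 or 3 (0.0536, 0.0521, 0.114 and 0.0561).

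In rTg4510 mice 14 members were called between 4 and 2 months, against 15.2% of all genes, of which 13 were higher at 4 months and Psmd3 was lower. At 6 months 9 were higher and 3 lower, against 26.1%, and at 8 months 2 were higher and 8 lower, against 21.7%. The shares called in either direction at 6 and 8 months were about those of all genes. Psmb6 and Psme1 were higher at 4 months (0.50 and 0.41, adjusted p 0.00422 and 0.000288), at 6 months (0.61 and 0.52, adjusted p 0.000173 and 2.82e-06) and at 8 months (0.55 and 0.43, adjusted p 0.00116 and 8.35e-05). At 8 months the largest falls were those of Psmg3 (-0.56, adjusted p 0.0461), Psmd3 (-0.49, adjusted p 0.00017) and Psmc3 (-0.49, adjusted p 0.0014). Psmd4, a ubiquitin receptor named after its values were seen, fell by 0.36 (adjusted p 0.00116). Psmc3 was also lower at 6 months (-0.28, adjusted p 0.0336), a call that ended without rTg4510 2 months replicate 2 or 4 or 6 months replicate 3 or 4 (adjusted p 0.0887, 0.0943, 0.134 and 0.0558). Psmg3 at 8 months ended in 17 of 28 omissions, under 75th percentile centring (adjusted p 0.0652) and with all 32 libraries (0.135). Psmd3 at 8 months was -0.29 with all 32 libraries and not called (0.501). The single lower call at 4 months, Psmd3, ended in 13 of them, and at 6 months 1 member was lower without 2 months replicate 2.

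The number of members higher at 4 months was 7 without rTg4510 4 months replicate 2. At 6 months it was 4, 5, 4, 3 and 3 without 2 months replicate 1, 2 months replicate 3, or 6 months replicate 2, 3 or 4. The number lower at 8 months was 5 without 2 months replicate 3 and 5, 4 and 5 without 8 months replicate 1, 2 or 3. From all 32 libraries, 3, 1 and 1 members were higher and 0, 0 and 2 lower than at 2 months in rTg4510 mice. The difference of Psmb6 between 4 and 2 months was -0.04 in that fit, and its differences at 6 and 8 months, 0.61 and 0.19, were not called (adjusted p 0.432 and 0.865).

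Members of the same particle varied together only in part. After group means were subtracted from the 28 libraries, the median Pearson r over gene pairs was 0.204 for the 15 core genes (105 pairs), 0.252 for the 6 ATPases (15 pairs), 0.139 for the 11 non-ATPase genes (55 pairs) and 0.109 over all 47 members (1081 pairs). Without that subtraction the medians were 0.585, 0.529, 0.373 and 0.276 in the same order. No r of other genes is set beside these values. These are descriptions, since the genes of a library share its depth and its scaling.

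Proteasome genes have many near-identical copies, which bears on how reads were assigned. Transcripts of 15 of the 47 members align to another gene over at least 100 bases at 97% identity or more, and for 14 of them a copy had its own row. The values given above for such members, called or not, are uncertain, because how reads matching several genes were counted is not known. Those with a copy in the table are Psma3, Psma4, Psma5, Psmb3, Psmb5, Psmb7, Psmc1, Psmc3, Psmc3ip, Psmd2, Psmd11, Psmd13, Psme2 and Psme2b. For Psmg3 the copy had no row. Psma5 and its processed pseudogene Gm12989 share 734 bases at 97.5% identity. The copy differed by 0.19, 0.40, 0.48 and 0.29 at 2, 4, 6 and 8 months, called at 4 and 6 months (adjusted p 0.0107 and 0.000521), in the direction of Psma5. Psmb5 and Gm3375 share 796 bases at 98.9%, and Gm3375 was also called at 4 months (0.39, adjusted p 0.0489). Psma3 and Gm13835 share 685 bases at 100%, and neither was called at any age. Psmd2 and Gm5422 share 180 bases at 97.2%, and Gm5422 was called at 4 months (0.42, adjusted p 0.0229). Psmb7 shares 255 bases with Nek6, a kinase gene beside it, which was called higher at 6 and 8 months (0.36 and 0.39, adjusted p 0.00358 and 0.00781).

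Psme2 and Psme2b, both in the rule, share 794 bases at 99.4% identity. Psme2b did not move with Psme2 on the deposited scale. Its differences were 0.00, 0.07, -0.05 and -0.01, with group means from 11.8 to 12. After quantile normalization Psme2b was called lower at 4, 6 and 8 months (-0.43, -0.64 and -0.54, adjusted p 0.0112, 4.9e-05 and 0.00152). Psmb6, Psmb4, Psme1, Psmd8 and Psmd6 have no such copy. In an alternative chosen after seeing the data, the 33 members without a copy in the table had 4, 11, 14 and 9 called higher and medians of 0.07, 0.20, 0.13 and 0.05.

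**Figure D3:**
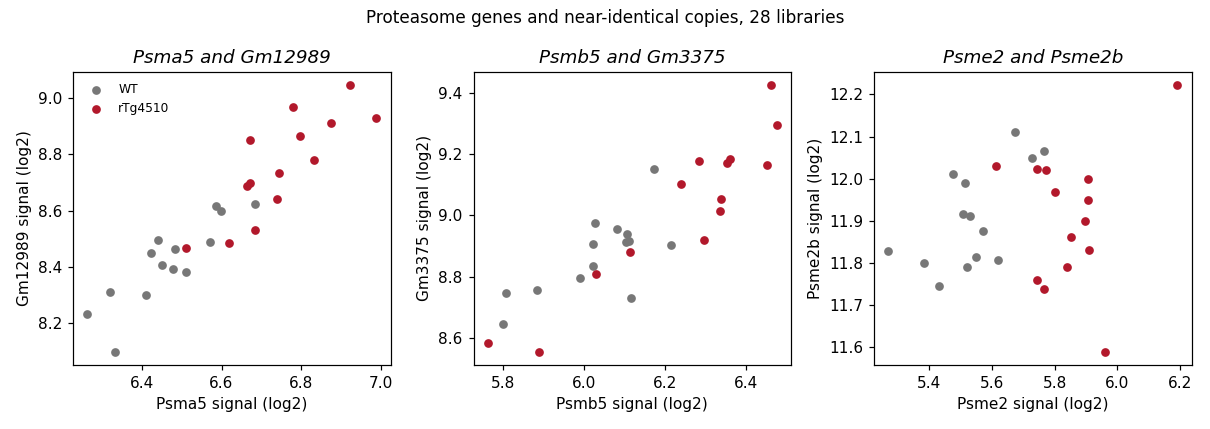
Log2 signal of Psma5 against Gm12989, Psmb5 against Gm3375 and Psme2 against Psme2b in the 28 kept libraries, 1 point per library, grey for WT and red for rTg4510. In the first and second pairs the copy is high where the member is high (Pearson r over the 28 libraries 0.926 and 0.889). In the third pair r is 0.232, and Psme2b spans 11.59 to 12.22 with no order by genotype.

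With the 28 libraries most core members were called higher in rTg4510 mice from 4 months on. With all 32 libraries most were not called at any of these ages. The promoters of members were read for motifs, as a description. RefSeq promoter windows of 300 bases, 250 before and 50 after the start on GRCm38.p6, were found for 39 of 47 members as 43 windows. The motifs were searched on both strands, and none of the 4 strings holds another. The antioxidant response element core TGACNNNGC was in 6 of 39 members (15.4%), in 2 of 11 core genes with a window, and in 14% of the 27025 genes with a window. The CCAAT box was in 14 members (35.9%), in 6 of 11 core genes, and in 41.1% of all genes. The ETS core CCGGAAG was in 16 members (41%), in 1 of 11 core genes, in 3 of 5 ATPases, and in 9.9% of all genes. The nuclear respiratory factor 1 core TGCGCA was in 6 members (15.4%), in 4 of 11 core genes, and in 8.8% of all genes. Among the 11107 protein-coding genes with a row and a window the shares were 16.7%, 42.8%, 18.6% and 15%. A match is a string and not a bound site, and its absence says that these letters are not in this window.

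The windows printed here, chosen after the values were seen, are those of the 3 members called at each age, of the core gene Psma2 with 4 matches to the respiratory factor string, and of the ATPase Psmc1, which was not called at any age. Capitals mark the antioxidant response element core in Psmb6, the CCAAT box and the respiratory factor core in Psma2, and the CCAAT box and the ETS core, on the reverse strand, in Psmc1. Psmb4 and Psme1 hold none of the 4 strings.
Psmb6, chr11:70525107-70525406, strand +: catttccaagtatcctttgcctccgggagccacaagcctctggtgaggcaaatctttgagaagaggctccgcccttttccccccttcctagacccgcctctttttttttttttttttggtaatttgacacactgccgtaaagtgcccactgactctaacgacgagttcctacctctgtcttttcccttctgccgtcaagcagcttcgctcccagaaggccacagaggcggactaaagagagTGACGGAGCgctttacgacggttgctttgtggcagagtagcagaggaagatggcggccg
Psmb4, chr3:94886909-94887208, strand -: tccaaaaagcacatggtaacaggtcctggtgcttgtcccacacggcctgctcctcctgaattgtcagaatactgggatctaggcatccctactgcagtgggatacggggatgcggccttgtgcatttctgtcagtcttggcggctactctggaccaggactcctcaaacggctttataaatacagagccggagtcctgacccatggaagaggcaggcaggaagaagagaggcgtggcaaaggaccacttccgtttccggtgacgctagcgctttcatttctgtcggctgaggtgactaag
Psme1, chr14:55578244-55578543, strand +: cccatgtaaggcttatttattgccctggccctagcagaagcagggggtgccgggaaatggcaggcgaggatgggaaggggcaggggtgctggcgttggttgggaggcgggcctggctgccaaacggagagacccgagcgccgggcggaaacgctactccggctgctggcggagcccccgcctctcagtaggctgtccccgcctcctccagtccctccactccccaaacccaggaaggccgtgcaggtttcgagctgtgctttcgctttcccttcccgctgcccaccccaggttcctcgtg
Psma2, chr13:14612992-14613291, strand +: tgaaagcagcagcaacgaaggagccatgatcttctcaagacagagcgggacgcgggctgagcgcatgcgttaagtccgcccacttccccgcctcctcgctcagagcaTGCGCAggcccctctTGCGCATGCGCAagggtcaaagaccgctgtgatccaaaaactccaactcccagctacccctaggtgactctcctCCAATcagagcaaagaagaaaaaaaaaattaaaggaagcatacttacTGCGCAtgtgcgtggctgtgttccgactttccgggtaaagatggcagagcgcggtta
Psmc1, chr12:100109952-100110251, strand +: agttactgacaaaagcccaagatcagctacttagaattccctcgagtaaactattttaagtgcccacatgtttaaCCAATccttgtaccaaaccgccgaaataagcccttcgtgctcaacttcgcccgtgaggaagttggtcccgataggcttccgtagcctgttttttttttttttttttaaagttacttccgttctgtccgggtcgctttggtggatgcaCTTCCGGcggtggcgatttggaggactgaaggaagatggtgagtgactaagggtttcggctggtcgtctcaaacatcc

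Gene length differed between roles. The longest protein-coding transcript had a median of 1165 bases for the core, 1688 for the ATPases and 1983 for the non-ATPase subunits, against 3152 over the 13481 protein-coding genes with a length. Across the 47 members Spearman's rho of length and log2 fold change was -0.231, -0.479, -0.355 and -0.291 at 2, 4, 6 and 8 months. Across protein-coding genes it was -0.064, -0.159, -0.185 and -0.149. Genes are not independent replicates, and the part of length in the result was not tested.

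Of 9 proteasome partners outside the symbol rule with a row, 0, 4, 5 and 3 were called higher at 2, 4, 6 and 8 months and 0 lower, and Paaf1 had no row. The counts of this and the lists that follow stand against 4.76%, 14.1%, 19.1% and 16% of all genes called higher. Genes called lower numbered 236, 1692, 2777 and 1817 of 18588 at these ages. Pomp, the chaperone that completes the core, differed by 0.19, 0.48, 0.52 and 0.43, called at 4, 6 and 8 months (adjusted p 0.000344, 1.74e-05 and 0.00107). Sem1, the smallest lid subunit, differed by 0.14, 0.40, 0.60 and 0.44, called at the same ages (adjusted p 0.0371, 0.000415 and 0.0207). The proteasome-bound deubiquitinase Usp14 differed by 0.19, 0.21, 0.37 and 0.24, also called at these ages (adjusted p 0.0447, 0.000102 and 0.0197). Of the 3 immunoproteasome subunits, 0, 1, 2 and 1 were called higher. Psmb8 differed by 0.20, 0.36, 0.48 and 0.56, called from 4 months on (adjusted p 0.0168, 0.000296 and 0.000408), Psmb9 by 0.29 at 6 months (adjusted p 0.00766), and Psmb10 was not called.

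Of 7 regulators of proteasome transcription, 1, 2, 2 and 2 were called higher and 0, 2, 1 and 1 lower. Nfe2l2, the factor that binds antioxidant response elements, differed by 0.09, 0.38, 0.62 and 0.76, called from 4 months on (adjusted p 0.000373, 6.16e-08 and 4.17e-08). Nfe2l1, known for restoring proteasome genes after inhibition, differed by -0.02, -0.04, 0.02 and 0.04 and was not called. Ddi2, the protease that activates its product, was called at all 4 ages (0.32, 0.47, 0.48 and 0.40, adjusted p 0.0138, 0.0005, 4.77e-05 and 0.00167). Ngly1, the deglycosylase of the same route, was lower at 4 and 8 months (-0.28 and -0.29, adjusted p 0.0301 and 0.0204). Nfyb, a CCAAT-binding subunit, was lower at 4 and 6 months (-0.52 and -0.40, adjusted p 0.00346 and 0.00667).

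Of 6 ubiquitin and E1 genes, 1, 3, 4 and 3 were called higher and 0 lower. Rps27a, a fusion of ubiquitin and a ribosomal protein, differed by 0.36, 1.09, 1.21 and 1.02, called from 4 months on (adjusted p 3.51e-06, 5.59e-08 and 6.79e-06). The polyubiquitin gene Ubb was not called. Among 10 shuttle and segregase genes 0, 1, 2 and 1 were called higher, no more than about the share of all genes, with the shuttle factor Rad23b at 4, 6 and 8 months (0.21, 0.24 and 0.22, adjusted p 0.0441, 0.00527 and 0.0298) and the segregase Vcp at 6 months (0.12, adjusted p 0.0492).

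Markers of cell type and state moved with the same comparisons. Microglia markers were called lower in 4, 5, 6 and 6 of 9 genes and higher in 0, 1, 2 and 1. The homeostatic gene Tmem119 fell by 0.35, 0.74, 0.78 and 0.72. The list's summed log2 signal ranged over libraries from 14.94 to 15.2 in WT and 14.78 to 14.94 in rTg4510 mice at 2 months, and from 14.72 to 14.99 and 14.41 to 14.52 at 8 months. All 6 neutrophil markers were lower at 6 and at 8 months, and 0 of 6 were called at 2 and 4 months. Their sum was 8.99 to 10.28 in WT and 7.36 to 8.14 in rTg4510 libraries at 6 months, and 9.94 to 10.31 and 7.73 to 9.04 at 8 months, with Ngp as the highest signal. Of 6 cycling markers, 5 were higher at 4 months, with sums of 7.46 to 7.81 in WT and 8.45 to 8.63 in rTg4510 libraries. At 6 months 1 was higher and 3 were lower, and at 8 months 1 was higher and 2 were lower, with Pcna, the highest signal of the list, called higher at 4, 6 and 8 months. Their part in the result was not tested.

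Other lists moved in fewer genes, and their group means of summed signal were as follows. The gene with the highest signal in a list is named for its weight in the sum, since signals do not rank transcript levels between genes. Astrocyte markers summed to 7.77 to 9.70, with the highest signal of 5 genes that of Aqp4. The upper end is the mean of WT at 8 months, where replicate 1 stood apart at 11.09 and replicates 2 and 3 were 9.03 and 8.98. Slc1a2 was 7.573 in that replicate 1, and 5.125 and 5.153 in replicates 2 and 3. Gfap was higher and Aqp4 lower at 6 and 8 months, and Slc1a2 lower at 8 months. Endothelial markers summed to 6.91 to 8.10 over 4 genes, with the highest signal that of Cldn5 or Flt1. Flt1 was higher and Pecam1 lower at 4, 6 and 8 months, and Cdh5 lower at 6 months. Oligodendrocyte markers summed to 6.70 to 8.76 over 5 genes, with Mag lower at 8 months. Here too the upper end is WT at 8 months, with replicate 1 at 10.39 and replicates 2 and 3 at 8.47 and 7.42. Border macrophage markers summed to 10.1 to 10.6, with the highest signal of 5 genes that of Mrc1 and with Lyve1 lower at 6 months. Neuron markers summed to 3.77 to 5.67, with Snap25 lower at 6 months. Cd3e, the only T cell marker of 3 with a row, was not called. The part of these lists in the result was not tested either.

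Several limits apply. The groups hold 3 or 4 pools, so differences near the threshold turn on single libraries, and many calls ended when the excluded libraries were restored. Transcript signal says nothing of subunit protein, assembled particles or activity, which were not analysed here. Genotype is bound to the transgenes, and the signals of several marker lists differed between the genotypes. Reads shared with pseudogenes cannot be separated. The genes of a role were not tested as a set, and their counts describe genes that vary together in part.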

How the data were processed

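The log2 gene signals were made by the authors and are used as deposited. They summed reads of 100 bases over exons, dropped exons with few counts, estimated each gene by robust linear modelling of its exons and normalised each library to a common median. Their notes name the genome build GRCm38. Read totals per library are not in the table and were not used here.

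A member is a protein-coding gene whose symbol has the stem Psm, a letter from a to g and a number, other than Psmb8, Psmb9 and Psmb10. Genes were named by Entrez identifier, which gave a name to 17828 of 18588 rows. Members and lists were chosen with earlier results of these data known. A rule for naming members with values gave 15 genes: the catalytic subunits, those called at all 4 ages or past 1.5-fold, those with a called interaction, and the largest called changes at an age or between ages. Other members were named after their values were seen.

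Group means were fitted with limma 3.58.1 in R 4.3.3, with unmoderated variance and Benjamini-Hochberg adjustment over 18588 rows per comparison. The alternatives were moderated variance, quantile normalization, centring at the 75th percentile, rows above the 25th percentile of mean signal, all 32 libraries, the groups of 1 age alone, replicate number as a block, and leaving out each of 28 libraries. Of the alternatives, those over the 45 members with a role and over members without a copy were added after seeing the data. Copies were found with blastn 2.17.0 in GENCODE M21 transcripts. Promoter windows and positions came from RefSeq. Other steps used Python 3.11.15, pandas 2.3.3, numpy 2.4.6, scipy 1.17.1 and matplotlib 3.10.9. Some genes of the other lists are not reported here.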

Additional observations from a re-analysis of the deposited data

Results flagged for a closer look

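Some single values stood apart from the other libraries of their group by Dixon's test, in 4 of 64 groups of values, where chance alone gives about 1 in 20. Psmd8 in rTg4510 2 months replicate 1 was 7.50, with the others from 7.10 to 7.16. Psma5 in the same library was 6.51, with the others from 6.66 to 6.67. Psmb7 in rTg4510 6 months replicate 4 was 7.93, with 7.81 the nearest. Psmb6 in WT 6 months replicate 3 was 7.60, with the others from 7.30 to 7.35. These libraries were kept, and the cause was not tested.

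The genotype difference changed with age in 11 member comparisons, which were 3, 4 and 4 of 47 members against 7.33%, 13.4% and 9.76% of all genes. With all 32 libraries 1, 0 and 0 members passed. Replicate number as a block ended Psme1 and Psmb3 from 2 to 4 months and Psma5 from 2 to 8 months. Moderated variance left 3 members from 2 to 8 months, without Psma5. From 2 to 4 months the change was 0.38 for Psme1, 0.41 for Psme2 and 0.50 for Psmb3. From 2 to 6 months it was 0.45 for Psme1, 0.32 for Psme2, 0.34 for Psmb4 and 0.35 for Psma7. From 2 to 8 months it was 0.44 for Psme1, 0.37 for Psme2, 0.28 for Psma5 and -0.42 for Psmd3.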

How the results depend on the processing

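With replicate number as a block, used because both genotypes share these numbers, members higher numbered 3, 18, 18 and 13 at 2, 4, 6 and 8 months. Members lower at 8 months went from 1 to 3, adding Psmd5 (-0.27, adjusted p 0.0346) and Psmg1 (-0.37, adjusted p 0.0347). The interaction count from 2 to 4 months went from 3 to 1, and those from 2 to 6 and 8 months were 6 and 4. Psma5 was not among those from 2 to 8 months. Residuals of same-numbered libraries of the genotypes correlated at 0.0649 to 0.167 at 2 months, with other pairs at -0.194 to 0.0816. At 4 months they gave -0.0999 to 0.124 and -0.0709 to 0.154. At 6 months they gave 0.131 to 0.153 and -0.127 to 0.0913, and at 8 months 0.15 to 0.291 and -0.259 to -0.0281. What the replicate numbers mark is not known.

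Moderated variance changed few counts by more than 1.5-fold. Members lower at 6 than 2 months in WT mice went from 1 to 0, and members lower at 4 than 2 months in rTg4510 mice from 1 to 0.

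Under quantile normalization members lower at 4, 6 and 8 months went from 0, 0 and 1 to 1, 2 and 3. Members higher by more than 1.5-fold at 4 months went from 2 to 1. Against 2 months, members lower at 8 months in WT mice went from 4 to 2. In rTg4510 mice those higher at 4 months went from 13 to 8, those lower from 1 to 0, and those higher at 6 months from 9 to 5. Centring at the 75th percentile took members lower at 6 months from 0 to 1, and those lower at 8 than 2 months in rTg4510 mice from 8 to 5. It turned Psmb5 at 8 months from 0.03 to -0.01 (-0.008).

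All 32 libraries moved the most counts. The genotype differences at 2 and 6 months were unchanged, since the restored libraries are of 4 and 8 months and enter there only through the residual variance and the adjustment of p. Members higher at 2, 6 and 8 months went from 4, 18 and 13 to 0, 3 and 1, and members lower at 8 months from 1 to 0. Members higher by more than 1.5-fold went from 2 to 7 at 4 months and 3 to 1 at 8 months, and the median at 4 months from 0.20 to 0.31. All genes called went from 1121 to 314 at 2 months and 6332 to 3718 at 6 months. Interaction counts from 2 months to 4, 6 and 8 months went from 3, 4 and 4 to 1, 0 and 0. In WT mice members lower than at 2 months went from 1 to 0 at 6 months and 4 to 0 at 8 months. In rTg4510 mice those higher went from 13 to 3, 9 to 1 and 2 to 1 at 4, 6 and 8 months, and those lower from 1 to 0, 3 to 0 and 8 to 2. Psmb5 at 8 months became -0.001, and Psmb6 between 4 and 2 months in rTg4510 mice went from 0.50 to -0.036.

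With the groups of 1 age alone, members higher went from 4 to 0 at 2 months and 16 to 4 at 4 months, and members lower at 8 months from 1 to 0. All genes called at 2, 4 and 8 months went from 1121, 4317 and 4784 to 554, 2215 and 2490. The filter on mean signal, the members with a role and the members without a copy moved no count by more than 1.5-fold.

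Leaving out 1 library at a time gave 1 to 5 members higher at 2 months and 10 to 17 at 4 months. Members lower at 8 months numbered 0 to 2. The median at 2 months ran from 0.0425 to 0.0967, that at 4 months from 0.125 to 0.205 and that at 8 months from 0.0139 to 0.115. Psmb5 at 8 months ran from -0.082 to 0.142. Interaction counts ran from 1 to 3 for 2 to 4 months, 4 to 7 for 2 to 6 months, 2 to 6 for 2 to 8 months and 0 to 1 for 4 to 8 months. Against 2 months, WT members lower ran from 0 to 1 at 6 months and 0 to 5 at 8 months. In rTg4510 mice members higher ran from 7 to 14 at 4 months and 3 to 10 at 6 months, and members lower from 0 to 1, 1 to 3 and 4 to 8 at 4, 6 and 8 months. The cause was not tested.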
